A study of Mus musculus with 39 samples.

Results

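The tumours described here are lymphomas of B lineage cells set apart by the transcript of Igha, the gene of the constant region of the immunoglobulin A heavy chain. They are the 8 tumours with the highest and the 8 with the lowest Igha among 33 tumours with a log2 level of at least 8 for Pou2af1, a coactivator of transcription in B cells, out of 39 tumours in the series. The tumours were thus chosen by the measured levels of Igha and Pou2af1, and both are given as a description only. All 39 tumours were lymphoma tissue of Eµ-myc mice, in which an immunoglobulin heavy chain enhancer drives Myc in B lineage cells, so the Igha-high and Igha-low tumours share genotype and tissue, and neither set carries a treatment. The labels give no age, sex, normal tissue, batch or outcome, and they describe the tumours as a training set. Whether every tumour stems from its own mouse is not stated, and the p-values below cover the spread among these samples alone. Tumours are called by the numbers in the labels.

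B cells first make IgM and can exchange the constant region of their heavy chain for another by class switch recombination. The switch to IgA is known to be directed by TGF-beta and by the cytokines BAFF and APRIL, chiefly in gut-associated lymphoid tissue. Plasma cells secrete IgA as dimers held by the J chain, and epithelial cells carry these across mucosal surfaces with the polymeric immunoglobulin receptor. A transcript of the Igha constant region can also be made from the unrearranged locus before a switch, and the array does not separate that transcript from one of a switched heavy chain.

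Igha ran from 11.95 in tumour 13 to 14.13 in tumour 1 in the high set (median 13.05, mean 12.97 ± 0.82, SD, n = 8) and from 6.79 in tumour 35 to 8.43 in tumour 22 in the low set (median 7.79, mean 7.78 ± 0.54, SD, n = 8). All levels are log2 values, on which a difference of 1 is a doubling. The order in the high set was tumours 1, 2, 34, 27, 7, 29, 30 and 13, and in the low set, downwards, tumours 22, 11, 14, 10, 28, 20, 36 and 35. The 17 tumours between ran from 8.79 to 11.93 (median 10.54), without a step at either edge: tumour 3, just outside the high set, was at 11.935 against 11.947 in tumour 13, and tumour 12, just outside the low set, was at 8.79. The other 2 probe sets of Igha ordered the tumours alike, with r = 0.999 and 0.989 against the ranking probe set over the 33 tumours. Each of them would have put 7 of the same 8 tumours in the high set and the same 8 in the low set. Pou2af1 itself was near-equal, with medians of 12.74 in the high and 12.75 in the low set. Igha was not limited to tumours rich in Pou2af1 transcript, since among the 6 tumours below the Pou2af1 limit it stood at 13.92 in tumour 26 and 12.81 in tumour 5.

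**Figure D1:**
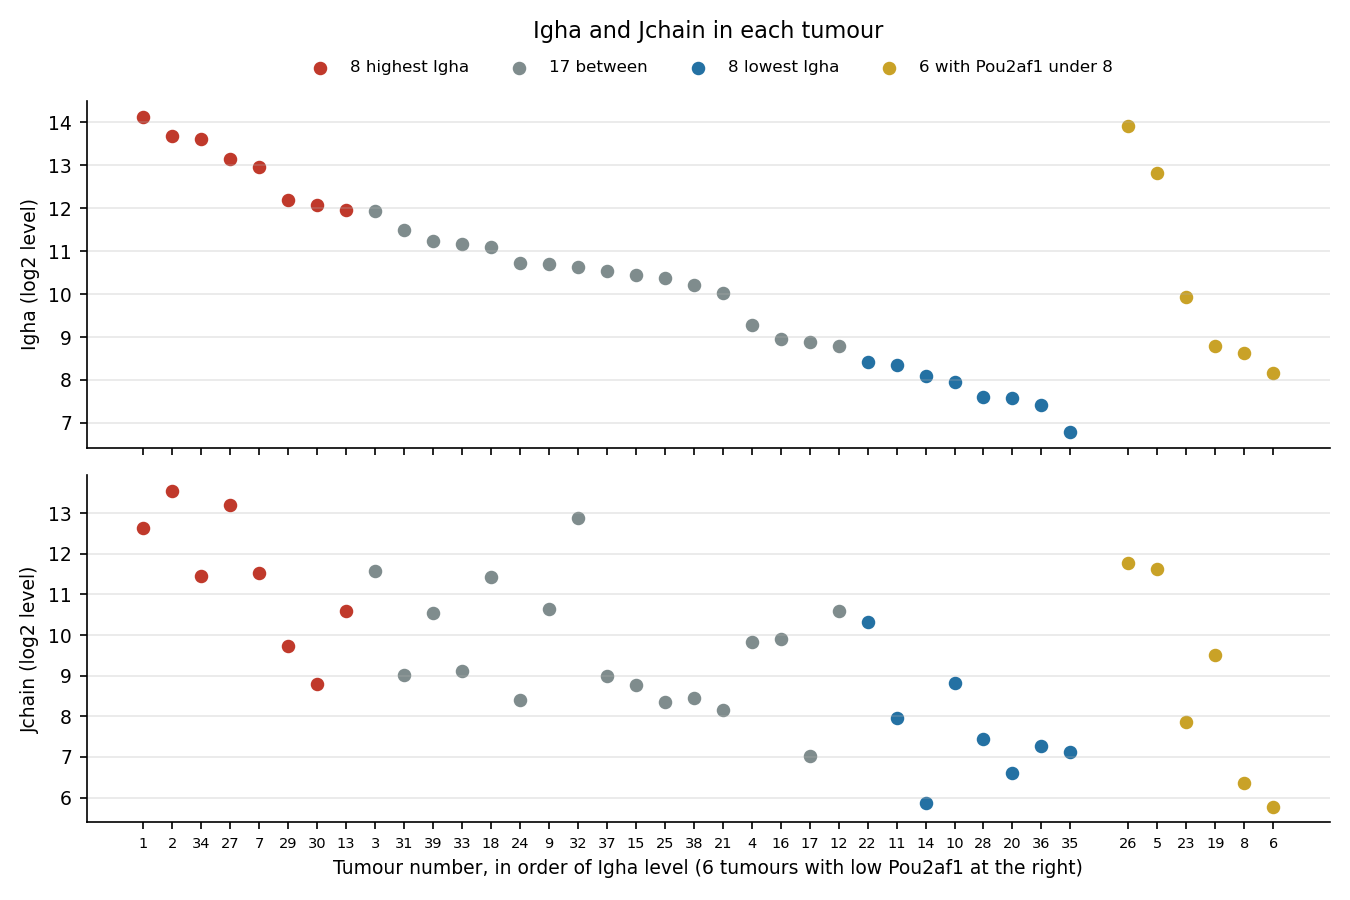
Log2 levels of Igha (upper panel) and Jchain (lower panel) in each of the 39 tumours, 1 point per tumour, ordered by Igha within the 33 tumours that passed the Pou2af1 limit, with the other 6 at the right. Igha falls without a break from 14.13 to 6.79, as the ranking sets it, and Jchain in the same order of tumours runs from 13.54 in tumour 2 to 5.87 in tumour 14, with 12.88 in tumour 32 among the tumours between.

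Arrays of the low set were closely alike, with a mean correlation with the other 38 arrays of 0.966 to 0.970, while those of the high set ran down to 0.948 in tumour 1 and 0.918 in tumour 2. The excess of 3′ over 5′ signal in the Actb and Gapdh control probe sets had medians of 0.10 in the high and 0.06 in the low set, and the median of an array 5.73 and 5.68. Tumour 2 stood apart with 8.19 for Myc and high levels of T cell genes, and for most gene lists the median without tumours 1 and 2 is given beside that over all 16. Tumour 27 was the 1 tumour of 39 with both Xist (10.16) and the Y-linked gene Eif2s3y (10.13) high, and medians without it are given for plasma cell, T cell, cytotoxic and germinal centre genes. Pan B cell genes showed no common direction between the sets, with a median over 13 members of -0.01 and 6 higher and 7 lower, and scores (mean log2 deviation from each gene's mean) from -0.25 to 0.78 in the high and from -0.07 to 0.60 in the low set. The sets thus overlapped in the markers of the B lineage.

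No gene passed the threshold between the high and the low tumours: of 18191 genes tested besides Igha and Pou2af1, 0 (0%) had a limma adjusted p under 0.05. At an unadjusted p under 0.05 there were 1929 genes, 887 (4.88%) with the higher mean in the high set and 1042 (5.73%) with the higher mean in the low set. With no limit on p, 8574 of the 18191 genes had the higher mean in the high set and 9617 the lower. The counts of list members below stand beside these shares. In simulated data, planted differences of 1 and of 2 log2 units were recovered at 73% and 89%. There the genes were independent, and each gene's spread came from the 17 tumours between. The spread of the 16 tumours compared did not enter, so these shares do not say how often such differences would be found between these sets. As no gene passed, the differences below are measured values that missed the threshold, unless a sentence says that a gene passed a test. A slope of each gene on the Igha level over all 33 tumours, which uses the same 16 tumours and the 17 between, gave 106 genes (0.583%) that rose with Igha and 27 (0.148%) that fell at a limma adjusted p under 0.05. This larger fit rested on few tumours: it gave 0 genes without tumours 1 and 2, and 3 genes (Jchain, Clu and Sema3a) without tumour 1, without tumour 2 or without tumour 27.

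The J chain stood nearest to Igha. Jchain, which encodes the peptide that joins IgA and IgM into polymers, ran from 8.79 in tumour 30 to 13.54 in tumour 2 in the high set (median 11.48) and from 5.87 in tumour 14 to 10.32 in tumour 22 in the low set (median 7.36). Of the 8 high tumours 6 lay above every low tumour, and tumours 29 and 30 overlapped with tumour 22. The means were 11.43 ± 1.67 and 7.68 ± 1.38 (SD, n = 8 each), a difference of 3.75 ± 0.70 (log2, SE), which missed the threshold (limma adjusted p = 0.344). Between the 6 highest and the 6 lowest tumours it was 4.82 and passed (limma adjusted p = 0.0344). Over the 33 tumours Jchain rose by 0.74 ± 0.11 per log2 unit of Igha (limma adjusted p = 0.0031, r = 0.749). It kept a limma adjusted p under 0.05 in all 33 fits that left out 1 tumour, with the highest at 0.0209 without tumour 2, but not without tumours 1 and 2 together (adjusted p = 0.111). In the 17 tumours between, which the comparison of the high with the low set did not use, the slope was 0.50 ± 0.37 and missed the threshold (limma adjusted p = 1.00).

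The other immunoglobulin chains measured gave values that depended on the probe set. Ighg3, the constant region of an IgG subclass, had medians of 7.58 in the high and 6.32 in the low set, a difference of 2.11 ± 0.78 (limma adjusted p = 0.459), and tumours 2, 1 and 27 held the highest levels (12.72, 10.98 and 10.00). Without tumours 1 and 2 the Ighg3 difference was 1.03, with the mean of its probe sets it was 0.92, and the probe sets agreed poorly (lowest r = 0.254). Ighm, the constant region of IgM, was high in both sets, from 13.20 to 14.73 in the high and from 12.74 to 14.55 in the low set. Its difference was 0.24 ± 0.25 and -0.00038 without tumours 1 and 2, but 2.06 with the mean of its 11 probe sets, which disagreed (lowest r = -0.233). The lambda light chain gene Iglv1 varied widely inside both sets, from 4.77 to 11.62 and from 4.95 to 11.90, with a difference of -0.83 ± 1.13 that turned to 1.26 with the mean of its probe sets. Of the 14 entries on the list of immunoglobulin chains and J chain 4 had a measured gene, and the remaining entries were not analysed here.

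Genes of plasma cells had a median difference of 0.67 over 16 measured members, against -0.01 over all genes. Of these 12 had the higher mean in the high set, 9 of them at an unadjusted p under 0.05 (all genes 4.88%), and 4 the lower mean, 1 of them at that p. The median without tumours 1 and 2 was 0.51, with 3 members at that p, where all genes gave 2.80%, and 0.56 without tumour 27. Sdc1, the syndecan that marks plasma cells, ran from 5.77 to 10.10 in the high set and from 4.61 to 9.55 in the low set, with medians of 8.08 and 5.62. Tumours 13 and 22 were the highest of their sets, so that only 1 high tumour lay above all low ones, and the difference was 1.66 ± 0.70 (limma adjusted p = 0.459). Prdm1, the transcription factor that drives plasma cell formation, had medians of 6.49 and 5.28 and reached 9.10 in tumour 2. Xbp1, the transcription factor of the secretory programme, ran from 11.11 to 13.40 and from 10.59 to 11.66, with 6 of 8 high tumours above all low ones and a difference of 0.90 ± 0.27 (limma adjusted p = 0.443). Tnfrsf17, the receptor BCMA of plasma cells, had medians of 5.40 and 4.53 with 8.53 in tumour 27. Mzb1, a chaperone of antibody assembly, had near-equal medians of 12.97 and 12.56. Prdm1, Xbp1, Tnfrsf17 and Mzb1 were chosen after their values were seen.

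Chaperones and folding enzymes of the endoplasmic reticulum, on which antibody secretion depends, had a median difference of 0.23 over 27 members. Of these 22 had the higher mean in the high set and 4 did so at an unadjusted p under 0.05 (all genes 4.88%). Without tumours 1 and 2 the median was 0.15, with 22 higher and 3 at that p (all genes 2.80%). Ern1, the stress sensor that splices Xbp1, had medians of 7.56 in the high and 7.01 in the low set, with 9.61 in tumour 2. Its difference of 0.87 was 0.24 with the mean of its probe sets, which disagreed (lowest r = -0.315). Edem1, which sends misfolded glycoproteins to degradation, had a mean of 9.91 ± 1.14 against 9.07 ± 0.21 (SD, n = 8 each), with 12.02 in tumour 27 and 11.06 in tumour 2. No member passed the threshold in the comparison or along the 33 tumours. In the tumours between, the median slope of this list was -0.0003.

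The genes of class switching to IgA showed no common direction, with a median difference of -0.04 over 20 measured members, 9 higher and 11 lower. Of these 3 and 1 had an unadjusted p under 0.05 (all genes 4.88% and 5.73%). Of the signals, Tnfsf13b, which encodes BAFF, had medians of 6.27 in the high and 5.12 in the low set and lay above all low tumours in 7 of 8 high ones, for a difference of 1.19 ± 0.43 (limma adjusted p = 0.459). Its highest level was 9.01 in tumour 2, and with the mean of its probe sets the difference was 0.55. Among its receptors, Tnfrsf13c (BAFF-R) had a difference of 0.81 ± 0.26 and Tnfrsf13b (TACI) one of -0.40 ± 0.19. Tgfbr1, a receptor chain for TGF-beta, had means of 9.70 ± 0.43 and 9.25 ± 0.37 (SD, n = 8 each). The Tgfbr1 difference of 0.45 was 0.14 with the mean of its probe sets. Of the members that act on DNA, the exonuclease gene Exo1 had a difference of -0.93, the ligase gene Lig4 one of -0.89 and the uracil glycosylase gene Ung one of -0.59. Tumour 2 was at 5.60 for Exo1 and 6.77 for Ung, and without tumours 1 and 2 the differences were -0.27, -0.17 and -0.15. No member passed the threshold along the 33 tumours.

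Targets of TGF-beta had a median difference of 0.10 over 12 members, 8 of them higher. Tgfbi, a secreted matrix protein induced by TGF-beta, ran from 7.48 to 11.91 in the high set (median 8.38) and from 6.13 to 8.15 in the low set (median 7.13). Of the 8 high tumours 5 lay above all low ones, and the difference was 1.91 ± 0.55 (limma adjusted p = 0.443). Tgfbi rose along the 33 tumours by 0.41 ± 0.09 per log2 unit of Igha (limma adjusted p = 0.041), but not without tumours 1 and 2 (adjusted p = 0.481).

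Genes of mucosal homing and IgA transport had a median difference of 0.27 over 15 measured members, with 10 higher and 5 lower. Of these 4 and 1 had an unadjusted p under 0.05 (all genes 4.88% and 5.73%). Madcam1, the vessel addressin that lymphocytes bind on entering gut tissue, was 1 of the genes whose sets did not overlap. It ran from 4.70 in tumour 30 to 6.84 in tumour 27 in the high set and from 4.03 to 4.69 in the low set, a difference of 1.11 ± 0.27 (limma adjusted p = 0.443). These are low signals: all low tumours and high tumours 1, 2, 7, 13 and 30 lay below the median of an array. That median was 5.73 in the high and 5.68 in the low set. Without tumours 1 and 2 the Madcam1 difference was 1.32, and along the 33 tumours the gene rose by 0.22 ± 0.05 per log2 unit of Igha (limma adjusted p = 0.0499). Ccr9, the receptor for the gut chemokine CCL25, ran from 4.67 to 8.80 in the high set (median 6.43) and from 3.98 to 5.60 in the low set (median 4.35), with 6 of 8 high tumours above all low ones. Its difference of 1.98 ± 0.47 missed the threshold (limma adjusted p = 0.443) and was 0.80 with the mean of its probe sets. Ccr6, a chemokine receptor of B cells in Peyer's patches, had medians of 7.18 and 5.95, with 10.92 in tumour 2. Itgae, the integrin chain CD103 of mucosal lymphocytes, had means of 5.77 ± 0.64 and 5.18 ± 0.09 (SD, n = 8 each) and rose along the 33 tumours (limma adjusted p = 0.0499). Its mean lay near the median of an array in the high set and below it in the low set. Neither Madcam1 nor Itgae passed without tumours 1 and 2 (adjusted p = 0.111 and 0.505).

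Ccr10, the homing receptor of IgA plasma cells, did not separate the sets, with medians of 5.77 in the high and 5.62 in the low set and single high levels in tumour 27 (7.57) and tumour 22 (6.95). Pigr, which encodes the polymeric immunoglobulin receptor, had medians of 4.94 and 4.44 and stood at 8.47 in tumour 7. Ccl25 itself had the lower mean in the high set, 6.15 ± 0.34 against 6.56 ± 0.16 (SD, n = 8 each), with 6 of 8 high tumours below all low ones.

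**Figure D2:**
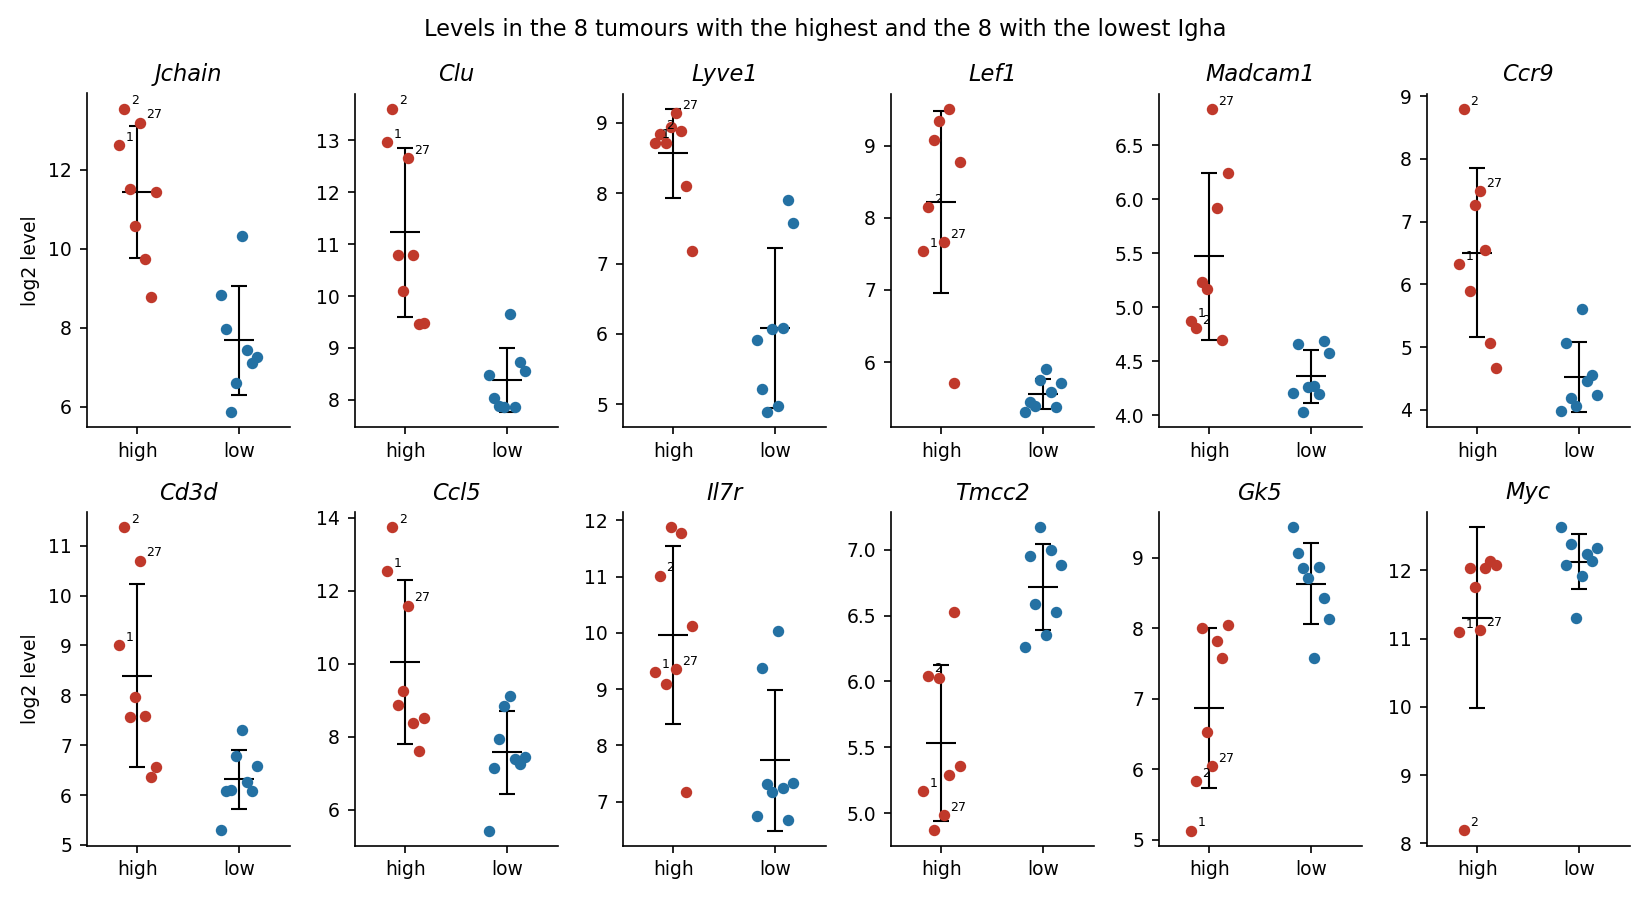
Log2 levels of 12 genes in the 8 tumours with the highest and the 8 with the lowest Igha, 1 point per tumour, with the mean and SD of each set as bars and tumours 1, 2 and 27 numbered. The sets do not overlap for Madcam1, 7 of 8 high tumours lie above all low ones for Lyve1 and Lef1, and tumour 2 lies alone at 8.19 for Myc.

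Clones, predicted genes, unnamed transcripts and sex-linked genes were passed over in the ranks by p and by r with Igha. Among the other genes, those with the smallest p were Lef1, Lyve1, Jchain, Clu, Adgrg3 and Spon1 on the higher side. Lef1, a transcription factor of Wnt signalling expressed in precursor B and T cells, stood between 5.31 and 5.90 in all 8 low tumours. It was between 7.54 and 9.51 in 7 of the high tumours and at 5.71 in tumour 30. The difference was 2.66 ± 0.42 and missed the threshold with all 16 tumours (limma adjusted p = 0.132). Tumour 30 decided that call: without it the Lef1 difference was 3.02 and passed (limma adjusted p = 0.0002). Lef1 also passed between the 6 highest and the 6 lowest tumours (2.93, limma adjusted p = 0.0072), which leave out tumours 30 and 13 and tumours 22 and 11. With tumours 1 and 2 left out the difference was 2.78. Over the 33 tumours Lef1 rose by 0.47 ± 0.12 (limma adjusted p = 0.0499), which held in 7 of the 33 fits that left out 1 tumour, with the highest adjusted p at 0.153 without tumour 2, and in the tumours between the slope was 0.36 ± 0.42.

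Lyve1, the hyaluronan receptor of lymphatic vessels and some macrophages, ran from 7.18 in tumour 34 to 9.14 in tumour 27 in the high set (median 8.78) and from 4.89 to 7.91 in the low set (median 5.99). Of the 8 high tumours 7 lay above all low ones, with tumours 35 and 36 the highest of the low set. The difference of 2.49 ± 0.43 missed the threshold (limma adjusted p = 0.187) and passed without tumour 35 (2.75, limma adjusted p = 0.036). Flt4 and Mmrn1, also genes of lymphatic endothelium, had the higher mean in the high set as well. No list of such genes was set beforehand and both were chosen after their values were seen, so their direction is no test. Flt4, the receptor for the lymphatic growth factor VEGF-C, had medians of 6.79 and 6.00, with poorly agreeing probe sets (r = 0.193). Its difference of 0.86 was 0.43 with their mean. Mmrn1, a multimerin, had medians of 6.92 and 4.54 and a difference of 1.73 ± 0.37 (limma adjusted p = 0.439), which was 0.87 with the mean of its probe sets. The 12 genes of blood vessel endothelium had a median difference of 0.20, which was 0.06 without tumours 1 and 2, and Plvap, the diaphragm protein of fenestrated vessels, one of 0.64 ± 0.25.

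Clu, the secreted chaperone clusterin, which follicular dendritic cells also make, ran from 9.46 to 13.61 in the high set (median 10.80) and from 7.86 to 9.66 in the low set (median 8.26). Tumours 1, 2 and 27 were the highest, at 12.96, 13.61 and 12.66, and tumours 30 and 34 lay below tumour 22. The Clu difference was 2.85 ± 0.57 (limma adjusted p = 0.387). Over the 33 tumours Clu rose by 0.58 ± 0.10 per log2 unit of Igha (limma adjusted p = 0.0079, r = 0.719), in all 33 fits that left out 1 tumour, but not without tumours 1 and 2 (adjusted p = 0.197). Spon1, an extracellular matrix protein, had a difference of 2.11 ± 0.44 (limma adjusted p = 0.394), which was 0.79 with the mean of its probe sets, and Adgrg3, an adhesion receptor of leukocytes, one of 1.01 ± 0.21. Adgrg3 ran from 5.46 to 7.24 in the high set and from 4.49 to 5.40 in the low set, with no overlap.

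Cxcl12, the chemokine that retains plasma cells in marrow, and the phospholipase gene Pla2g2d were also chosen after their values were seen. Cxcl12 had medians of 10.48 in the high and 8.90 in the low set, a difference of 1.82 ± 0.43, and 12.94 in tumour 2, but its probe sets disagreed (lowest r = -0.137). Pla2g2d had medians of 8.89 and 6.24 and the desmosomal gene Dsg2, likewise chosen, 7.18 and 4.71. The Dsg2 difference of 2.61 was 1.19 with the mean of its probe sets. Cxcl12, Pla2g2d and Dsg2 rose along the 33 tumours (limma adjusted p = 0.048, 0.0499 and 0.0307) and missed the threshold between the sets (limma adjusted p = 0.443 for each).

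The genes with the highest correlation with Igha over the 33 tumours were Jchain (r = 0.749), Sema3a (0.725), Clu (0.719), Sphk1 (0.699) and Spon1 (0.676). These r describe tumours that were partly ranked on Igha, and carry no test. How many of the arrays were normalized together is not given. Sema3a, a guidance ligand, had means of 5.27 ± 0.45 and 4.59 ± 0.18 (SD, n = 8 each), and Sphk1, which makes sphingosine-1-phosphate, 5.25 ± 0.39 and 4.75 ± 0.14. These means lay below the median of an array, 5.73 in the high and 5.68 in the low set. With the mean of probe sets the difference went from 0.68 to 0.43 for Sema3a and from 0.50 to 0.34 for Sphk1. The lowest correlations were those of Ddx59 (-0.679), Ccdc166 (-0.662), Senp1 (-0.648), Isy1 (-0.634) and Kctd9 (-0.632). Each of these 5 fell along the 33 tumours, by between 0.10 for Senp1 and 0.14 for Ccdc166 per log2 unit of Igha, with limma adjusted p from 0.0298 for Ddx59 to 0.048 for Kctd9. None of them passed without tumours 1 and 2, where the adjusted p were 0.404 for Ddx59 and Ccdc166 and higher for the other 3. For Isy1 the difference between the sets went from -0.48 to -0.16 with the mean of its probe sets.

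**Figure D3:**
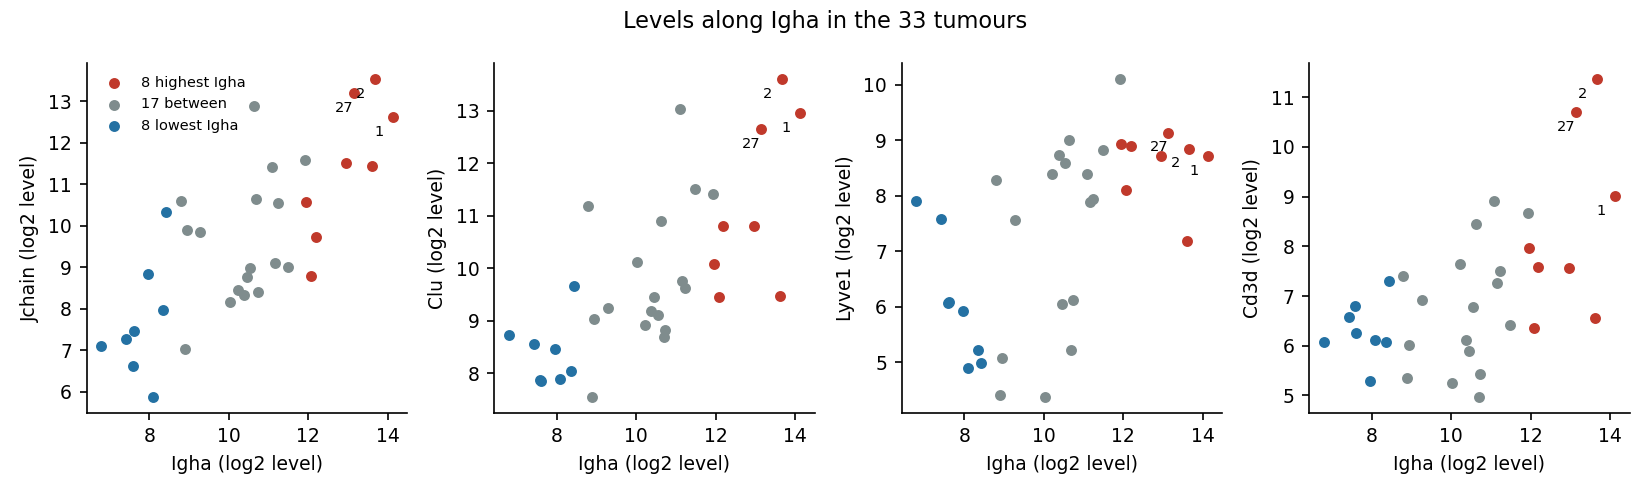
Log2 levels of Jchain, Clu, Lyve1 and Cd3d against that of Igha in the 33 tumours with Pou2af1 at 8 or more, 1 point per tumour, coloured by set, with tumours 1, 2 and 27 numbered. Jchain (r = 0.749) and Clu (r = 0.719) go up with Igha, and for Cd3d (r = 0.580) tumours 2 (11.37) and 27 (10.70) stand above all others.

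On the lower side the smallest p were those of Tmcc2, Gk5, Ddx59, Ccdc166, Nras and Lrrc51. Tmcc2, a membrane protein gene, ran from 4.87 to 6.53 in the high set (median 5.33) and from 6.26 to 7.17 in the low set (median 6.74), with 7 of 8 high tumours below all low ones. Its mean was lower by 1.18 ± 0.23 in the high set (SE; -1.18 as high minus low, limma adjusted p = 0.366), and -1.20 without tumours 1 and 2. Gk5, a glycerol kinase gene, had medians of 7.05 and 8.78 and a difference of -1.76 ± 0.42, which was -1.30 without tumours 1 and 2. Nras, a Ras oncogene that is mutated in some lymphoid tumours, differed by -0.50 ± 0.12 (limma adjusted p = 0.443), with 10.24 and 10.79 as medians. Ddx59, a helicase gene, differed by -0.65 ± 0.16, Ccdc166 by -0.70 ± 0.17 and Lrrc51 by -0.61 ± 0.15.

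Only 11 of the 18191 genes had sets that did not overlap, 6 higher (0.033%) and 5 lower (0.0275%) in the high set. The higher ones were Adgrg3, Madcam1, Frzb, Rasgrp3, Dlg2 and Crispld2. Frzb, a secreted inhibitor of Wnt ligands, ran from 4.71 to 7.56 against 3.68 to 4.63. Rasgrp3, an activator of Ras in B cells, ran from 6.27 to 10.56 against 6.01 to 6.25, and tumour 27 was the highest. The lower ones were Nek2, Tab1, Senp1, Pex2 and the predicted gene Gm8709. Nek2, a kinase of centrosome separation, ran from 7.28 in tumour 2 to 10.67 against 10.74 to 11.13, and Tab1, an adaptor of TGF-beta activated kinase, from 6.75 to 7.49 against 7.52 to 8.22. With the mean of probe sets the difference went from -0.53 to -0.29 for Tab1, from -0.37 to -0.24 for Pex2 and from 0.51 to 0.23 for Dlg2. None of the 11 passed the threshold between the sets, and those printed here were chosen after their values were seen.

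T cell genes stood higher in the high set for every measured member, 16 of 16 (all genes 8574 of 18191), with a median difference of 1.34. Of these 12 had an unadjusted p under 0.05 (all genes 4.88%). Along the 33 tumours 3 rose at a limma adjusted p under 0.05 (all genes 0.583%). Cd3d, a chain of the T cell receptor complex, ran from 6.36 to 11.37 in the high set (median 7.77) and from 5.29 to 7.31 in the low set (median 6.18), with 6 of 8 high tumours above all low ones. Its difference was 2.08 ± 0.63 (limma adjusted p = 0.443). Icos, a costimulatory receptor of helper T cells that was chosen after its values were seen, had medians of 6.47 and 5.47 and 10.18 in tumour 2. A list score, which averages each member's log2 deviation from its own mean over 39 tumours, was 2.72, 1.96 and 0.92 in tumours 2, 27 and 1. The other 5 high tumours had T cell scores from -0.38 to 0.71, and the low tumours from -1.20 in tumour 10 to 0.34 in tumour 22. Without tumours 1 and 2 the median T cell difference was 0.94, with 15 of 16 members higher and 8 at an unadjusted p under 0.05 (all genes 2.80%), and without tumour 27 it was 1.12.

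Cytotoxic and NK cell genes gave a median difference of 1.22, with 14 of 14 members higher and 7 at an unadjusted p under 0.05 (all genes 4.88%). Ccl5, a chemokine of effector T cells, ran from 7.60 to 13.74 and from 5.43 to 9.11, with means of 10.06 ± 2.25 and 7.57 ± 1.14 (SD, n = 8 each). Klrd1, the CD94 receptor chain, had a difference of 2.20 ± 0.62 and Nkg7, a granule protein, one of 1.95 ± 0.69, and all 3 rose along the 33 tumours (limma adjusted p = 0.0499, 0.048 and 0.0499). Scores were 3.43, 2.36 and 1.49 in tumours 2, 27 and 1 and between -0.51 and 0.09 in the other 5 high tumours. The low tumours lay between -1.16 and 0.16. Without tumours 1 and 2 the median difference was 0.62, with 2 members at an unadjusted p under 0.05 (all genes 2.80%), and without tumour 27 it was 0.91.

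In bulk tissue fewer cells of a type and less RNA per cell cannot be told apart. With the T cell, macrophage and fibroblast scores as covariates, 0 genes passed between the sets, as without them. At an unadjusted p under 0.05 there were 483 genes (limma), against 1929 without them. Along the 33 tumours 0 genes passed with these covariates, against 133 without them. Macrophage genes had a median of 0.30 over 19 members, 13 of them higher. At an unadjusted p under 0.05, 1 was higher and 1 lower (all genes 4.88% and 5.73%). Without tumours 1 and 2 that median was -0.18, with 7 of 19 higher and 2 lower at that p (all genes 602 of 18191 lower). Fibroblast genes had a median of -0.0011 over 13 members, with Dcn, a small matrix proteoglycan, at 1.59 ± 0.50 and Col1a1, a collagen chain, at -0.96 ± 0.46. With the mean of its probe sets Dcn was at 1.05. The part of T, cytotoxic or other cells in the differences of single genes was not tested beyond this.

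Neutrophil genes had the higher mean in the high set for 13 of 13 members, with a median of 0.89, and 5 at an unadjusted p under 0.05 (all genes 4.88%). S100a8 and S100a9, the chains of calprotectin, had medians of 10.40 against 8.25 and 9.94 against 7.80, with 13.18 and 12.74 in tumour 7. The neutrophil score was highest in tumour 7 (2.60) and lowest of the high set in tumour 34 (-0.97), and tumour 20 reached 1.04 in the low set. The median was 1.07 without tumours 1 and 2.

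Genes of salivary and lacrimal glands had a median difference of 1.44 over 17 members, but 2 tumours held it. Bpifa2, a salivary secretory protein, was at 14.31 in tumour 7 and 14.01 in tumour 13, and between 3.36 and 5.00 in all other tumours of both sets. The score was 4.50 in tumour 7 and 2.87 in tumour 13 and at most -1.20 in the other 6 high tumours, against -1.74 to -0.56 in the low set. Only 1 member had an unadjusted p under 0.05 (all genes 4.88%). Glands also hold IgA plasma cells, and tumours 7 and 13 had plasma cell scores of 0.42 and 0.76. Tumours 27 and 2, with gland scores of -1.47 and -1.40, had higher plasma cell scores of 1.45 and 1.31. Among the tumours between, tumours 3, 39, 37, 25, 38 and 15 had gland scores from 1.96 to 6.25. Their plasma cell scores ran from -0.52 in tumour 15 to 0.25 in tumour 3, and their Igha from 10.22 in tumour 38 to 11.93 in tumour 3. With the gland score as covariate 0 genes passed between the sets, as without it (limma, 2076 at an unadjusted p under 0.05 against 1929 without it). The part of gland tissue in the Igha level itself was not tested.

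**Figure D4:**
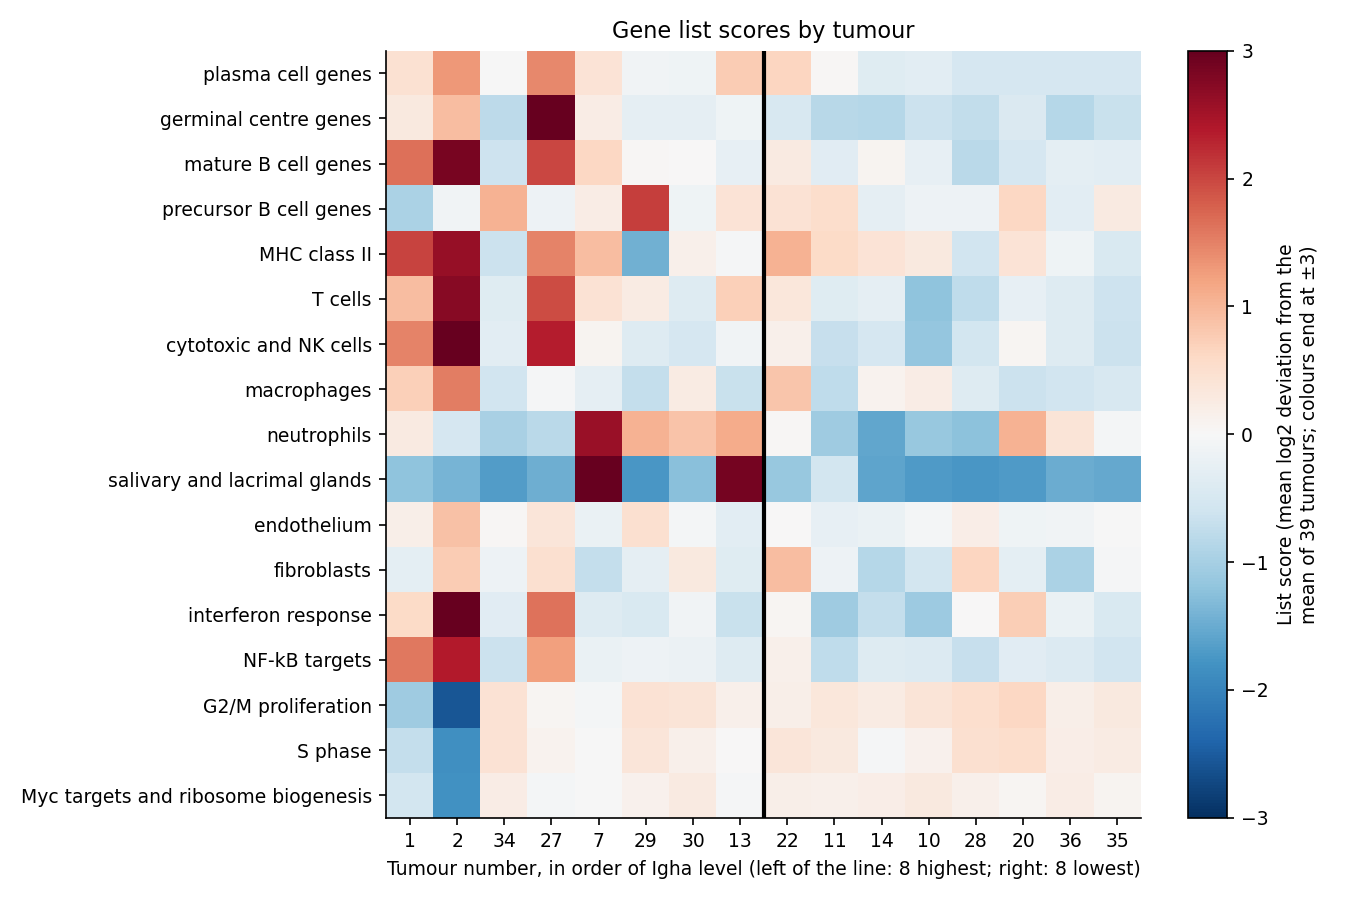
List scores (mean log2 deviation of the members from each gene's mean over 39 tumours) of 17 gene lists, 1 row per list and 1 column per tumour, ordered by Igha, with colours that end at ±3. Tumours 1, 2 and 27 are high for T cell (0.92, 2.72 and 1.96), cytotoxic and mature B cell genes, tumours 7 and 13 for gland genes (4.50 and 2.87), and tumour 2 is lowest for G2/M genes (-2.56).

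Genes of B cell stages varied inside the high set. Mature B cell genes had a median difference of 1.27 over 16 members, 12 higher and 9 at an unadjusted p under 0.05 (all genes 4.88%). Without tumours 1 and 2 the median was 0.70, with 4 at that p (all genes 2.80%). The score was 2.86, 2.00 and 1.64 in tumours 2, 27 and 1, and from -0.62 in tumour 34 to 0.63 in tumour 7 in the other high tumours. The low tumours ran from -0.81 to 0.26. Ltb, lymphotoxin beta, ran from 6.75 to 13.14 in the high and from 6.22 to 8.85 in the low set, with a difference of 2.72 ± 0.83 that was 1.62 without tumours 1 and 2. Cr2, the complement receptor CD21 of mature B cells, had medians of 6.03 and 4.36 and 10.22 in tumour 27, and Fcmr, the Fc receptor for IgM, 9.70 and 7.36.

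Precursor B cell genes pointed both ways, 9 higher and 8 lower, with a median of 0.20 over 17 members. Besides Lef1, Il7r, the receptor for the growth factor of precursor B cells, ran from 7.17 in tumour 30 to 11.88 in tumour 13 in the high set (median 9.74) and from 6.68 to 10.04 in the low set (median 7.28). Its difference of 2.23 ± 0.65 missed the threshold (limma adjusted p = 0.443) and passed between the 6 highest and the 6 lowest tumours at 3.03 (limma adjusted p = 0.0404). Vpreb3, a partner of the precursor receptor, had near-equal medians of 11.96 and 11.97 but 6.23 in tumour 1 and 7.52 in tumour 2. The precursor score was highest in tumour 29 (2.08) and tumour 34 (1.04) and lowest in tumour 1 (-0.96) among the 16 tumours, and tumours 31 and 21 of those between were at 1.38 and 1.30.

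Germinal centre genes had the higher mean in the high set for 9 of 9 members, with a median of 1.02 and 4 at an unadjusted p under 0.05 (all genes 4.88%). The median was 0.83 without tumour 27. The score was 3.94 in tumour 27, the highest of the 16 tumours, and 4.43 in tumour 18 of those between, and 7 of 8 high tumours lay above all low ones, which ran from -0.87 to -0.42. Bcl6, the master repressor of the germinal centre programme, had medians of 7.35 and 5.51, with 10.91 in tumour 27 and 10.23 in tumour 2. Rgs13, a regulator of chemokine receptors there, was at 11.63 in tumour 27 and 7.11 in tumour 7, and at most 4.06 elsewhere in the 16 tumours. Gcsam, a germinal centre adaptor, was at 9.38 in tumour 27 against a median of 4.05 in the high set.

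**Figure D5:**
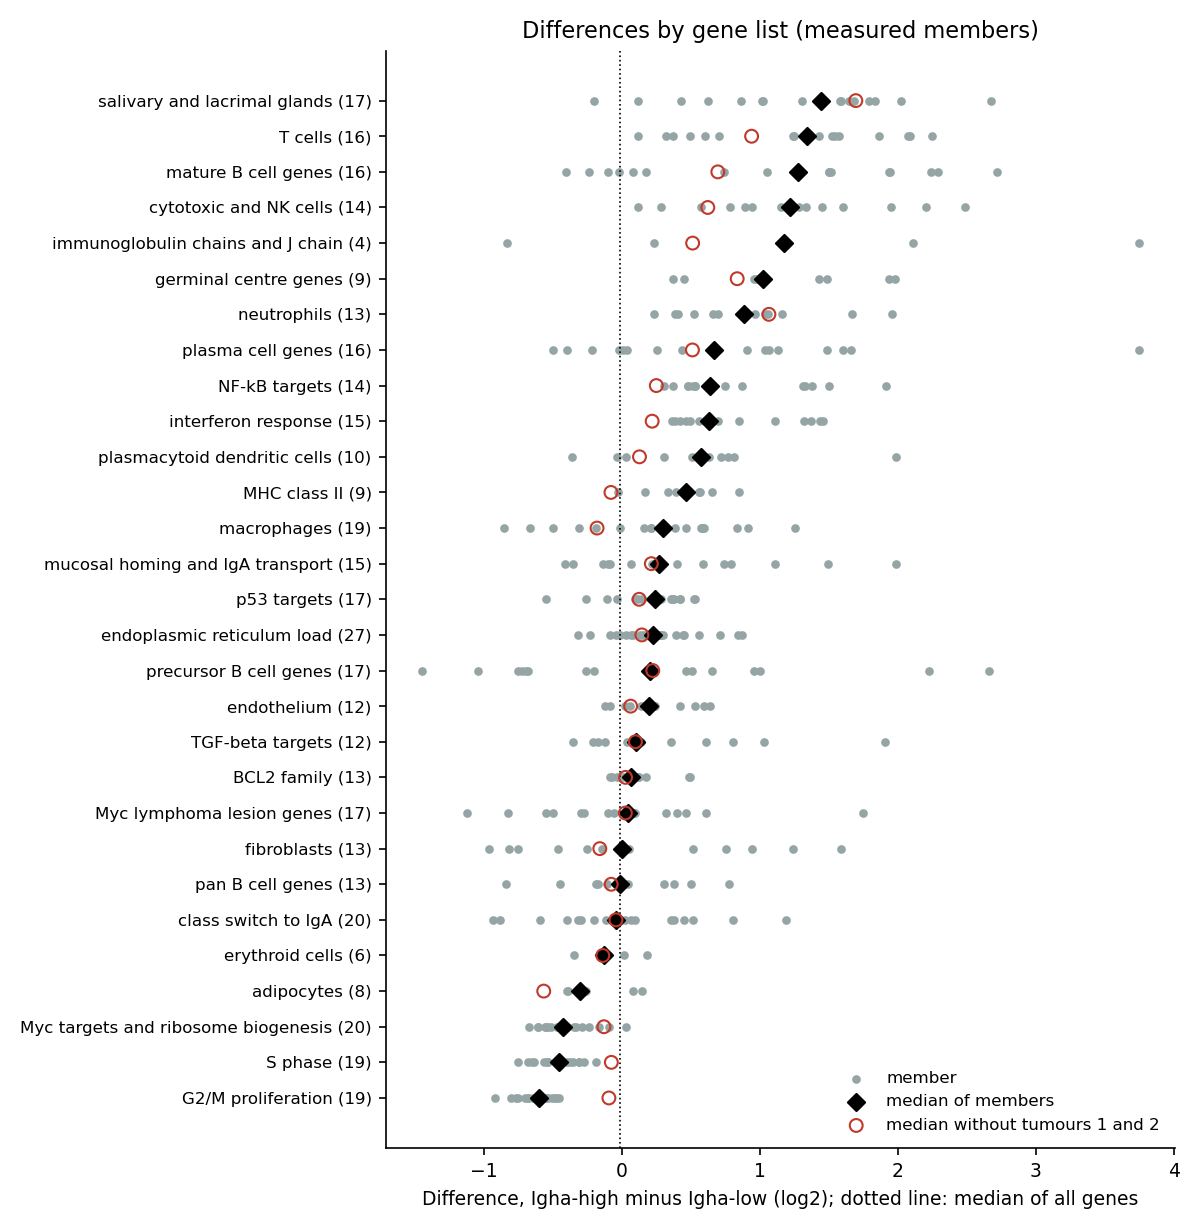
Difference of each measured member (grey points) between Igha-high and Igha-low tumours, in log2, for 29 gene lists with the number of members, with the median as a diamond and the median without tumours 1 and 2 as an open circle. The dotted line is the median of all genes (-0.01). T cell (1.34), mature B cell (1.27) and cytotoxic genes (1.22) lie to the right and G2/M genes (-0.60) to the left, and the open circles of most of these lie nearer to the line.

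NF-kB targets had the higher mean in the high set for 14 of 14 members (median 0.64, 7 at an unadjusted p under 0.05, all genes 4.88%). Traf1, a signalling adaptor, had medians of 6.24 and 4.80 and rose along the 33 tumours (limma adjusted p = 0.0499), and Cd83 and Bcl3 had differences of 1.50 ± 0.64 and 1.38 ± 0.49. Interferon response genes were higher for 15 of 15 members with a median of 0.63, but 1 had an unadjusted p under 0.05 (all genes 4.88%). Tumours 2 (3.54) and 27 (1.62) had the highest interferon scores of the high set and tumour 20 the highest of the low set (0.75), and tumour 32 of those between was at 1.81. The medians were 0.25 for NF-kB targets and 0.22 for interferon genes without tumours 1 and 2.

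Proliferation genes had the lower mean in the high set. The medians were -0.60 for 19 G2/M genes, -0.45 for 19 S phase genes and -0.42 for 20 Myc targets. Of these 19, 19 and 19 were lower (all genes 9617 of 18191), but only 2, 3 and 0 at an unadjusted p under 0.05 (all genes 5.73%). Cenpf, a kinetochore protein, had medians of 10.02 and 10.61 and fell along the 33 tumours by 0.19 ± 0.05 per log2 unit of Igha (limma adjusted p = 0.0499). These differences belonged mostly to tumours 1 and 2: without them the medians were -0.09, -0.07 and -0.13. G2/M scores were -2.56 in tumour 2 and -1.06 in tumour 1, and from -0.06 to 0.43 in the other high tumours, against 0.17 to 0.62 in the low set. Myc had medians of 11.89 and 12.19 and a difference of -0.82 ± 0.45 (limma adjusted p = 0.499), which was -0.27 without tumours 1 and 2. Its target Srm, spermidine synthase, had medians of 12.22 and 12.52. Among the cyclins, Ccnd1 had means of 9.81 ± 1.28 and 10.94 ± 0.37 and Ccnd2 9.64 ± 1.56 and 7.89 ± 1.21 (SD, n = 8 each), and neither passed the threshold (limma adjusted p = 0.459 for both).

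The remaining lists are given by their medians. MHC class II genes had a median of 0.46 over 9 members, p53 targets one of 0.24 over 17 and plasmacytoid dendritic cell genes one of 0.57 over 10. These 3 medians were -0.08, 0.13 and 0.13 without tumours 1 and 2. The BCL2 family (0.07 over 13), Myc lymphoma lesion genes (0.05 over 17), erythroid (-0.13 over 6) and adipocyte genes (-0.30 over 8) held at most 3 members at an unadjusted p under 0.05 (all genes 4.88% higher and 5.73% lower).

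In the 17 tumours between, no gene passed on its slope along Igha (limma, 0 of 18191, 0%, with 701 at an unadjusted p under 0.05). The Igha range there was 8.79 to 11.93. Of the 887 genes with a higher mean in the high set at an unadjusted p under 0.05, 699 (78.8%) had a positive slope in the tumours between, where 57.6% of all genes did. Of the 1042 with a lower mean 671 (64.4%) had a negative slope, against 42.4% of all genes. The median slope of T cell genes was 0.22 per log2 unit of Igha with 14 of 16 positive, that of cytotoxic genes 0.19 with 14 of 14 positive, and that of plasma cell genes 0.09 with 10 of 16 positive. Gland genes had a median slope of 1.24 with 17 of 17 positive, mature B cell genes 0.02 with 9 of 16, and G2/M genes 0.01 with 11 of 19. Lyve1 had a slope of 0.99 ± 0.39 and Clu one of 0.63 ± 0.31 in these tumours (SE, limma adjusted p = 1.00 for both). Genes are not independent replicates, so these shares describe the 17 tumours and are no test.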

How the data were processed

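The authors deposited 1 log2 value per probe set and array, computed by RMA (affy package) according to the submitters' processing notes. RMA subtracts background, equalises the distributions of arrays by quantiles and combines the probes. How many arrays were normalized together is not given in the sources used here, and the scale was inferred from the range of values. Differences of dim genes can be compressed in such values, and quantile normalization hides changes in total RNA. All 39 columns held 1 tumour each.

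Of 45101 probe sets 34945 named 1 gene in the platform annotation, 932 several, and 9160 were not listed. Of the 1-gene probe sets 34741 matched by Entrez identifier in a RefSeq gene table. For each of 18193 genes the probe set of highest mean over 39 arrays was used, and levels were not compared between probe sets. Tumours with Pou2af1 at 8 or more were ranked by Igha. The labels give 1 group, so the sets come from these measured values. The members, gene lists and tests were chosen with earlier results of these data known.

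Genes other than Igha and Pou2af1 were fitted with limma 3.58.1 in R 4.3.3 (lmFit, eBayes with trend), high against low, and in the tumours between as a slope on Igha. Tests were 2-sided with Benjamini-Hochberg adjustment over 18191 genes and a threshold of 0.05. The self-test on simulated data, with independent genes and the spread of the tumours between, gave 4.14% false calls. There were 30 gene lists, which share some members. Sex-linked genes were used as a check. List counts carry no test. Named genes are the 6 smallest p in each direction, the 3 largest differences in each list, all measured members of the immunoglobulin, class switch and homing lists (a selection is printed) and the 5 highest and 5 lowest r with Igha. Riken clones, predicted genes, expressed sequences, unnamed transcripts and sex-linked genes were passed over in the ranks by p and by r. Other names were chosen after seeing values, as the text states, and so were Serpinb6b and the genes named for a small number of calls. Alternatives changed the size of the sets, the Pou2af1 limit, probe set choice, covariates, the filter on dim genes, array weights, centring and single tumours. The number of arrays limits the precision.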

Additional observations from a re-analysis of the deposited data

Results flagged for a closer look

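Within each set of 8, the highest or lowest tumour was compared with its neighbour for each of the 88 genes named, by the ratio of that gap to the range of the set against Dixon's critical value for 8 samples. Of 176 such groups 19 held a tumour that stood apart. Chance alone gives about 1 in 20 groups, and genes of a tumour move together, so the groups are not independent.

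Tumour 22, the low tumour nearest to the tumours between, stood above the other low tumours for 7 genes. It was at 7.80 for Ighg3 (next 6.68), 7.25 for Prdm1 (next 5.59), 5.60 for Tnfrsf17 (next 4.81), 7.11 for Ccr6 (next 6.14), 6.95 for Ccr10 (next 5.99), 6.95 for Bcl3 (next 6.07) and 6.48 for Dsg2 (next 5.07). Its plasma cell score of 0.64 was the highest of the low set.

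Tumour 2 stood apart in the high set for 7 genes. It was above the others for Tnfsf13b (9.01, next 6.66) and Ccr6 (10.92, next 8.14), and below them for Ung (6.77, next 8.72), Myc (8.19, next 11.10), Nusap1 (8.71, next 10.42), Tk1 (7.69, next 9.24) and Nek2 (7.28, next 9.24).

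Tumour 27 stood above the other high tumours for Ccr10 (7.57, next 6.07) and Gcsam (9.38, next 5.59), and tumour 7 for Pigr (8.47, next 5.96). In the low set tumour 11 was highest for the gland genes Pip (6.30, next 4.04) and Bpifa2 (4.17, next 3.86).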

How the results depend on the processing

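The comparison of the sets called 0 genes with all 16 tumours. It called 3 (Jchain, Lef1 and Il7r) with the 6 highest against the 6 lowest, 1 (Lef1) with the precursor minus mature B cell score as covariate, 1 (Lef1) with array weights, and from 0 to 1 leaving out single tumours: Lef1 without tumour 30 and Lyve1 without tumour 35. The slope over 33 tumours called 133. The other alternatives called 0, with 483 to 2076 genes at an unadjusted p under 0.05. Among these, a Pou2af1 limit of 10 picked the same 16 tumours, since the lowest Pou2af1 of the 33 was 10.59. Its count could not differ. The slope over 33 tumours called 0 without tumours 1 and 2, 0 with the T cell, macrophage and fibroblast scores and 0 with the plasma cell score as covariates. It called 232 with the mean of probe sets, 3 among genes above the median level (Jchain, Clu and Serpinb6b) and 9 with Igha as rank. Leaving out 1 tumour gave from 3 to 1203 calls, the fewest without tumours 1, 2 or 27 and the most without tumour 34. The cause was not tested. In the tumours between all alternatives called 0.

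Of 2696 values of single genes 2641 kept direction and side of the threshold, 37 passed it and 18 turned. As no gene passed in the main comparison, keeping its side meant missing the threshold again. Some of the 2641 were also fixed beforehand. The higher Pou2af1 limit and the filter on dim genes left each difference as it was. So did the mean of probe sets for genes with 1 probe set. The count of 2641 is thus no measure of how stable the differences are. With the other-cell scores as covariates the difference turned to -0.071 for Prdm1, -0.0046 for Edem1, -0.079 for Ccr10, -0.44 for Cd3g, 0.25 for Myc and 0.069 for Srm. Cd3g, with medians of 7.97 and 5.61, is itself a member of the T cell score. With the plasma cell score it turned to -0.081 for Sdc1, -0.24 for Prdm1, -0.00996 for Tnfrsf17, -0.0075 for Edem1, -0.34 for Ccr10 and 0.0119 for Myc, of which Sdc1, Prdm1 and Tnfrsf17 are members of that score. Ighm was at -0.0022 with the stage score, -0.0145 with array weights and -0.00038 without tumours 1 and 2. Iglv1 was at 1.26 with the mean of probe sets, a setting that moved 20 of the 51 named genes with several probe sets by over 1.5 times or turned them. Pip was at -0.16 with the gland score, of which it is a member. Ccr10 ran from -0.0087 to 0.38 leaving out single tumours, the lowest without tumour 27.

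The alternatives without tumours 1 and 2, with the plasma cell score, and those of the slope over 33 tumours were chosen after seeing the data. No paired analysis was possible because the labels give 1 group with no pairs.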

Other observations

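Xist was at 10 or more in 4 of 8 high and 5 of 8 low tumours, and the Y-linked gene Eif2s3y at 9 or more in 5 and 2. In 1 of 39 tumours, tumour 27, both were, with 10.16 for Xist and 10.13 for Eif2s3y. With Xist as covariate 0 genes passed between the sets (limma, 1795 at an unadjusted p under 0.05). Without it 0 passed as well (1929 at that p), so the count could not fall. The part of these transcripts in the results was not tested beyond this and the values given without tumour 27.

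Among the 6 tumours below the Pou2af1 limit, Jchain was at 11.78 in tumour 26 and 11.63 in tumour 5, the 2 with the highest Igha, and at 5.78 in tumour 6, the one with the lowest.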
